A study of Mus musculus with 38 samples.

Results

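The subunits of the serine/threonine phosphatases PP1, PP2A, calcineurin, PP4, PP5 and PP6 were followed in dentate granule cells with and without recent activity of the Arc promoter. Members were all genes of the count files whose symbol starts with Ppp, a digit from 1 to 6 and then c (catalytic) or r (regulatory), with Ppp1r15a left out, which gave 77 of 23420 genes. PP1 had 45 members, PP2A 17, calcineurin (Ppp3) 5 and PP4 to PP6 together 10. Each library held the RNA of 10 pooled cells aspirated from acute slices of adult male Arc::dVenus mice on C57BL/6J, a line whose short-lived fluorescent reporter, dVenus, is under the Arc promoter, so that dVenus+ marks cells by promoter activity and not by a fixed lineage. A dVenus+ and a dVenus- library came from each of 19 mice. Of these, 12 were taken the day after fear conditioning (FC). Another 4 were taken the day after the same session without foot shocks (NS), and 3 were naive home-cage mice (HC). All groups carried the reporter, and HC differed from the others by having no training.

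Reversible phosphorylation of serine and threonine is set by kinases against a small number of phosphatase catalytic subunits, whose targets are chosen by a much larger set of regulatory subunits. PP1 pairs its catalytic subunit with one of many targeting or inhibitor proteins, PP2A adds a scaffold and one B subunit, and calcineurin is a dimer of a catalytic A and a calcium-binding B subunit that calmodulin activates. In hippocampal neurons PP1 and calcineurin are best known for their part in synaptic depression and in limiting memory storage.

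Gene counts per library ran from 1352288 to 18394761. Arc, the gene whose promoter drives the reporter, was higher in dVenus+ cells of 12 of 12 FC, 4 of 4 NS and 3 of 3 HC mice, by 8.75, 8.75 and 8.33 on the log2 scale. Of 8 granule cell markers, 5 were called lower in FC dVenus+ cells, and their summed level was higher in only 1 of 12 FC, 0 of 4 NS and 0 of 3 HC dVenus+ libraries. In FC mice that sum ran from 387 to 2847 normalized CPM in dVenus+ and from 1676 to 4007 in dVenus- libraries. Summed markers of microglia were higher in 9 of 12 FC dVenus+ libraries (18.0 to 1611 against 1.44 to 591) and those of interneurons in 3 of 12 (17.4 to 484 against 33.4 to 2775). In NS and HC mice microglia were higher in 4 of 4 and 2 of 3, and interneurons in 1 of 4 and 2 of 3. Oligodendrocyte markers were higher in 4 of 12 FC (161 to 3338 against 236 to 4925), 2 of 4 NS and 1 of 3 HC mice. Astrocyte markers were higher in 3 of 12 FC (52.3 to 1953 against 185 to 3177), 2 of 4 NS and 3 of 3 HC mice. Nuclear-retained RNAs such as Malat1 summed higher in dVenus+ libraries of 12 of 12 FC, 4 of 4 NS and 3 of 3 HC mice. The part of these shifts in the values below was not tested, and with pooled cells fewer cells of a type and less RNA per cell cannot be told apart. NS and HC libraries carried 1 series of sample IDs and FC libraries 3 others. Between FC and the other groups, training history and library series thus cannot be told apart, for levels and for dVenus+ changes alike.

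Levels per kilobase of exon put the calcineurin genes Ppp3r1 and Ppp3ca and the PP2A scaffold Ppp2r1a at the top in FC dVenus- libraries. The protocol covers whole transcripts, so genes can be set side by side, but only roughly. The length used was the union of a gene's annotated exons, which can exceed that of the transcripts present. In FC dVenus- libraries the median was 186 normalized CPM (counts scaled to a common library total) per kb for Ppp3r1, the calcineurin B subunit, and 164 for Ppp3ca, the calcineurin A alpha catalytic subunit. Ppp2r1a, the PP2A scaffold A alpha, had a median of 149 CPM per kb, Ppp1r1a (PP1 inhibitor 1, which blocks PP1 once phosphorylated by PKA) 96.3 and Ppp1ca, a PP1 catalytic subunit, 63.4. The same 5 genes led in FC dVenus+ libraries, with medians of 215 for Ppp3r1, 138 for Ppp1r1a, 95.2 for Ppp3ca, 94.9 for Ppp2r1a and 59.3 for Ppp1ca. Ranges of neighbours in this order overlapped widely, for example 63.3 to 246 for Ppp3ca and 26.1 to 241 for Ppp2r1a in dVenus- libraries, so the order is that of the medians alone.

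**Figure D1:**
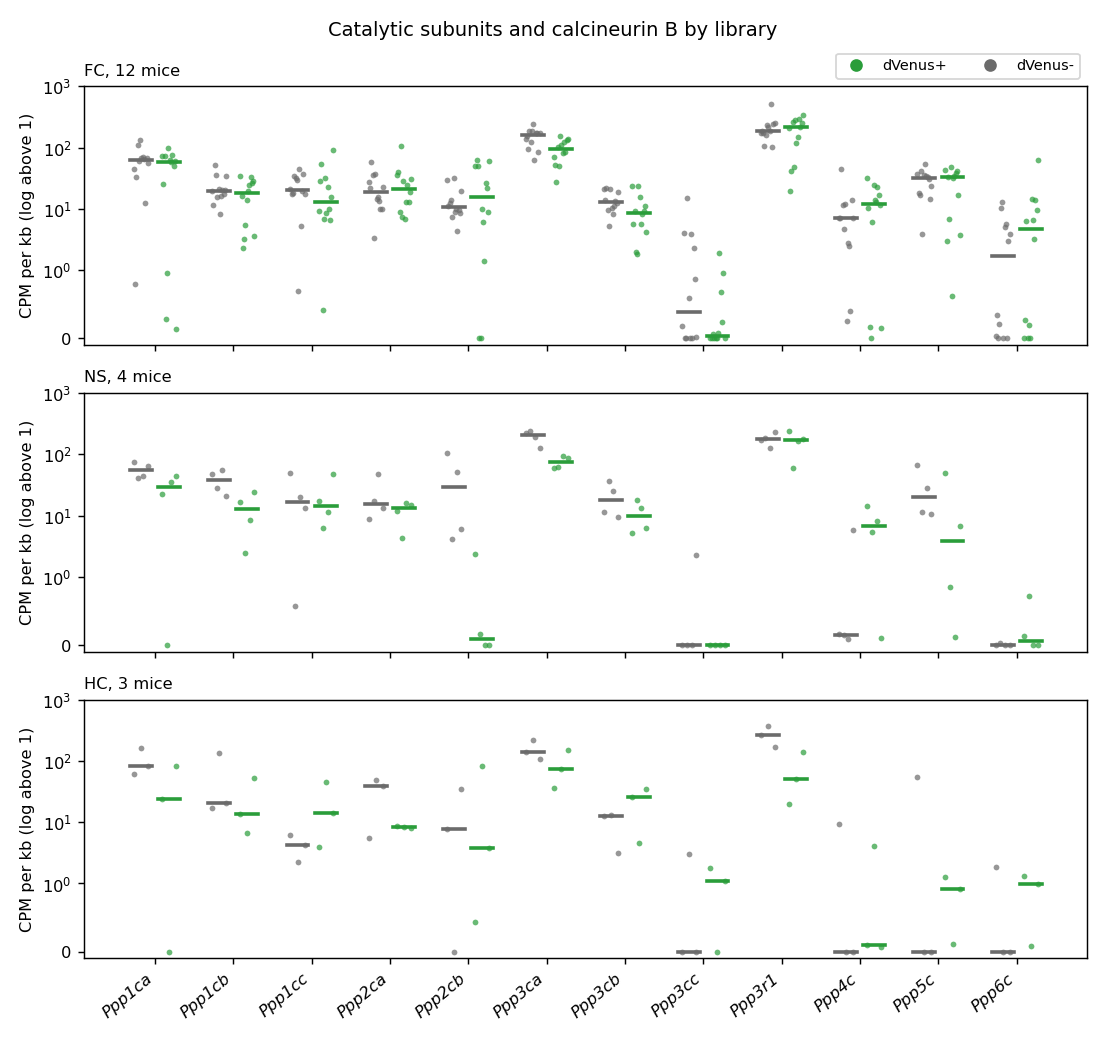
Level of 11 catalytic subunits and of calcineurin B (Ppp3r1) in each library, as normalized CPM per kb of exon (linear below 1, log above), for FC, NS and HC mice. Points are libraries, bars medians; Ppp3ca and Ppp3r1 have the highest medians in each panel, and Ppp3cc, Ppp4c and Ppp6c reach 0 in several libraries.

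The catalytic subunits of a family are alike in coding sequence, and the 50-base single reads that were counted can be assigned only where these copies differ. The most alike coding windows of that length are shown for the main paralog of each family, from GENCODE M21 transcripts on GRCm38, with capitals at the bases that differ.
Ppp1ca (chromosome 19, coding bases 823 to 872): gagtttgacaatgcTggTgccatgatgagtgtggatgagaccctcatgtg
Ppp1cc (chromosome 5, coding bases 823 to 872): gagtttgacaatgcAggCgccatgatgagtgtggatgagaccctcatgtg
Ppp2ca (chromosome 11, coding bases 15 to 64): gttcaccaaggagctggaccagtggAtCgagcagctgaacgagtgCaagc
Ppp2cb (chromosome 8, coding bases 15 to 64): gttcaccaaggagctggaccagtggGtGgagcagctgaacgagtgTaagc
Ppp3ca (chromosome 3, coding bases 910 to 959): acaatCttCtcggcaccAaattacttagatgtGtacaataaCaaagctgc
Ppp3cb (chromosome 14, coding bases 937 to 986): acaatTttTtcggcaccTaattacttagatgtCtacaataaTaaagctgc
Even here 2 bases separate Ppp1ca from Ppp1cc, 3 separate Ppp2ca from Ppp2cb and 5 separate Ppp3ca from Ppp3cb. Over the aligned coding sequence 78.5%, 81.7% and 73.9% of bases were identical in these pairs, and 0 of the 50-base windows of Ppp1ca, Ppp2ca or Ppp3ca occurred unchanged in the coding sequence of the partner. For Ppp3cc, the calcineurin A gene with the lowest level, the window most like Ppp3ca differed at 3 bases, and 72.9% of aligned bases were identical. A read with a few mismatches can still fall on the other copy, so a part of a low paralog's counts is uncertain.

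Calcineurin A was mostly Ppp3ca, by the share of each catalytic subunit in its family's level per kb. Ppp3ca made up a median of 89.5% (81.1 to 96.0%) of the calcineurin A level in FC dVenus- and 90.9% (74.7 to 98.1%) in FC dVenus+ libraries, and its share was higher in dVenus+ cells of 6 of 12 mice. Ppp3cb, the A beta subunit, held 8.89% and 8.56%, and Ppp3cc, the A gamma subunit best known from testis, 0.201% and 0.0312%. For the scaffold of PP2A, Ppp2r1a held a median of 99.2% in FC dVenus- and 99.9% in FC dVenus+ libraries against Ppp2r1b. By this measure PP1 and PP2A catalytic subunits were more evenly mixed. Ppp1ca held 53.9% and 56.9%, Ppp1cb 21.0% and 25.5% and Ppp1cc 21.8% and 18.3%, while Ppp2ca held 57.3% and 50.2% beside Ppp2cb. These shares depend on the exon lengths used, 2520 bases for Ppp1ca, 10913 for Ppp1cb, 7490 for Ppp2ca and 1469 for Ppp2cb. Before division by length, counts over all libraries were 53125 for Ppp1ca, 95731 for Ppp1cb, 53943 for Ppp2ca and 9064 for Ppp2cb. In NS mice the Ppp2ca share was higher in dVenus+ cells of 4 of 4 mice, 83.5 to 100% against 7.81 to 80.7%, but in HC mice in only 2 of 3.

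Detection limited what could be compared. Of the members, 10 had at least 10 counts in all 38 libraries: Ppp1cb, Ppp1r16b, Ppp1r9a, Ppp1r9b, Ppp2ca, Ppp2r2a, Ppp2r2c, Ppp3ca, Ppp3cb and Ppp3r1. No library had 10 counts for 6 members, and 4 of those (Ppp1r14d, Ppp1r2-ps7, Ppp1r2-ps9 and the testis calcineurin B gene Ppp3r2) had no count at all. A minimum of 10 counts, required in 12 FC, 4 NS or 3 HC libraries, kept 53 members in FC, 45 in NS and 45 in HC, and 22 members, all of PP1 except Ppp3r2, passed in no group. The 7 glycogen-targeting subunits of PP1 (Ppp1r3a to Ppp1r3g) had 0 of 7 tested in FC and NS and 1 of 7 in HC. A member that passed only through the cell type where it is high had to differ, so counts over the members tested are given as descriptions.

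In FC mice the question was whether dVenus+ cells differ from their dVenus- neighbours the day after learning. PP2A held the one call: 1 of 53 members tested, or 1.89%, had an adjusted p under 0.05 and a change above 2-fold, beside 4.35% of all 9709 genes tested (edgeR quasi-likelihood test, two-sided, Benjamini-Hochberg adjustment). At an unadjusted p under 0.05 there were 7 members, or 13.2%, beside 17.8% of all genes; 5 were higher and 2 lower in dVenus+ cells, beside 6.49% and 11.3% of all genes. DESeq2 called 6 of the 53 (11.3%), beside 17.0% of all genes. The share of members called was thus no larger than that of genes at large with either tool. The median log2 fold change was -0.08 over the 53 members and -0.11 over all genes, with 26 members above and 27 below 0.

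Ppp2r2b encodes the B55 beta subunit of PP2A, a neuronal targeting subunit whose gene carries a repeat expansion in a form of spinocerebellar ataxia. In the 12 FC dVenus+ libraries it ran from 4.95 to 84.2 normalized CPM with a median of 48.0, and in the 12 dVenus- libraries from 0 to 101 with a median of 2.42. In 10 of 12 mice the dVenus+ library had more, and the fitted change was 3.16 ± 0.89 on the log2 scale (SE; 95% interval 1.34 to 4.98, edgeR adjusted p = 0.0363). The dVenus- libraries of mice 1, 5, 9, 12, 13 and 14 held only 0, 0, 4, 3, 0 and 2 counts. The size of the change thus leans on libraries at or near 0 and is uncertain. The groups overlapped. The dVenus- libraries of mice 7 and 10, at 101 and 92.4, exceeded every dVenus+ library, those of mice 4 and 6, at 16.5 and 11.9, lay above the lowest of them, and only mice 7 and 10 went the other way. In the dVenus- library of mouse 10 the summed interneuron markers were the highest of the 12 (2775 CPM) and the summed granule cell markers the lowest (1676 CPM). In that of mouse 7, with the higher Ppp2r2b level, both sums were the 4th highest of the 12, at 180 and 2946 CPM. Other marker sums also stood out, ranked from the highest of the 12. Microglia ranked 2nd in mouse 7 (273 CPM) and 12th in mouse 10 (1.44 CPM). Oligodendrocytes ranked 5th and 4th, their precursors 9th and 2nd, and astrocytes 4th and 9th in mice 7 and 10. Nuclear-retained RNAs ranked 12th and 8th. The part of these cell types in the Ppp2r2b levels was not tested. Without mouse 10 the change was 3.70 (adjusted p = 0.0156) and without mouse 7 it was 3.63 (adjusted p = 0.0189). The call is a narrow one: leaving out 1 mouse at a time gave adjusted p-values from 0.0156 to 0.0850, and the call was kept in 4 of 12 such fits (without mouse 4, 7, 10 or 11) and lost without mouse 1, 3, 5, 6, 9, 12, 13 or 14. Within the FC mice of each ID series, 2, 4 and 6 in number, the change was 4.90, 1.47 and 3.92, with 0 of these called. The call was also lost with no count filter (adjusted p = 0.0660) and without the mouse as a block (1.14, adjusted p = 0.427).

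The other B55 subunits of PP2A had smaller fold changes in FC mice. Ppp2r2a (B55 alpha) had medians of 102 (dVenus+) and 75.0 (dVenus-) normalized CPM and a log2 fold change of 0.08 ± 0.53 (SE). Ppp2r2c (B55 gamma), the most abundant of them per kb in dVenus- cells, was at 117 and 158, with -0.42 ± 0.40. Ppp2r2d (B55 delta) was at 18.5 and 15.8, with 1.02 ± 0.81. None of these 3 passed an unadjusted p of 0.05, and a difference between B55 genes in their response was not tested.

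The B″ subunits of PP2A, which bind calcium, lay above 0 in 3 of 3 cases. Ppp2r3d was low throughout, from 0.196 to 66.5 normalized CPM (median 5.12) in dVenus+ and from 0.355 to 5.90 (median 1.57) in dVenus- libraries, and it was higher in dVenus+ cells of 9 of 12 mice. The ranges overlapped, and the change of 1.98 ± 0.64 on the log2 scale missed the threshold (adjusted p = 0.0669), and passed it without mouse 10 (2.38, adjusted p = 0.0269). Ppp2r3c followed with 1.53 ± 0.98 (adjusted p = 0.441) and Ppp2r3a with 0.25 ± 0.73. DESeq2 called Ppp2r3d (2.15, adjusted p = 0.0191) and Ppp2r3c (2.26, adjusted p = 0.0370), as it did Ppp2r2b (4.43, adjusted p = 3.7e-06). Of the 5 B56 subunits, which direct PP2A to many phosphoproteins, 4 lay below 0 and 1 above, from -1.06 (Ppp2r5b) to 0.52 (Ppp2r5e), with none at an unadjusted p under 0.05. The catalytic genes Ppp2ca and Ppp2cb had log2 fold changes of 0.23 ± 0.38 and 0.17 ± 0.76, and the scaffold Ppp2r1a had -0.50 ± 0.42.

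**Figure D2:**
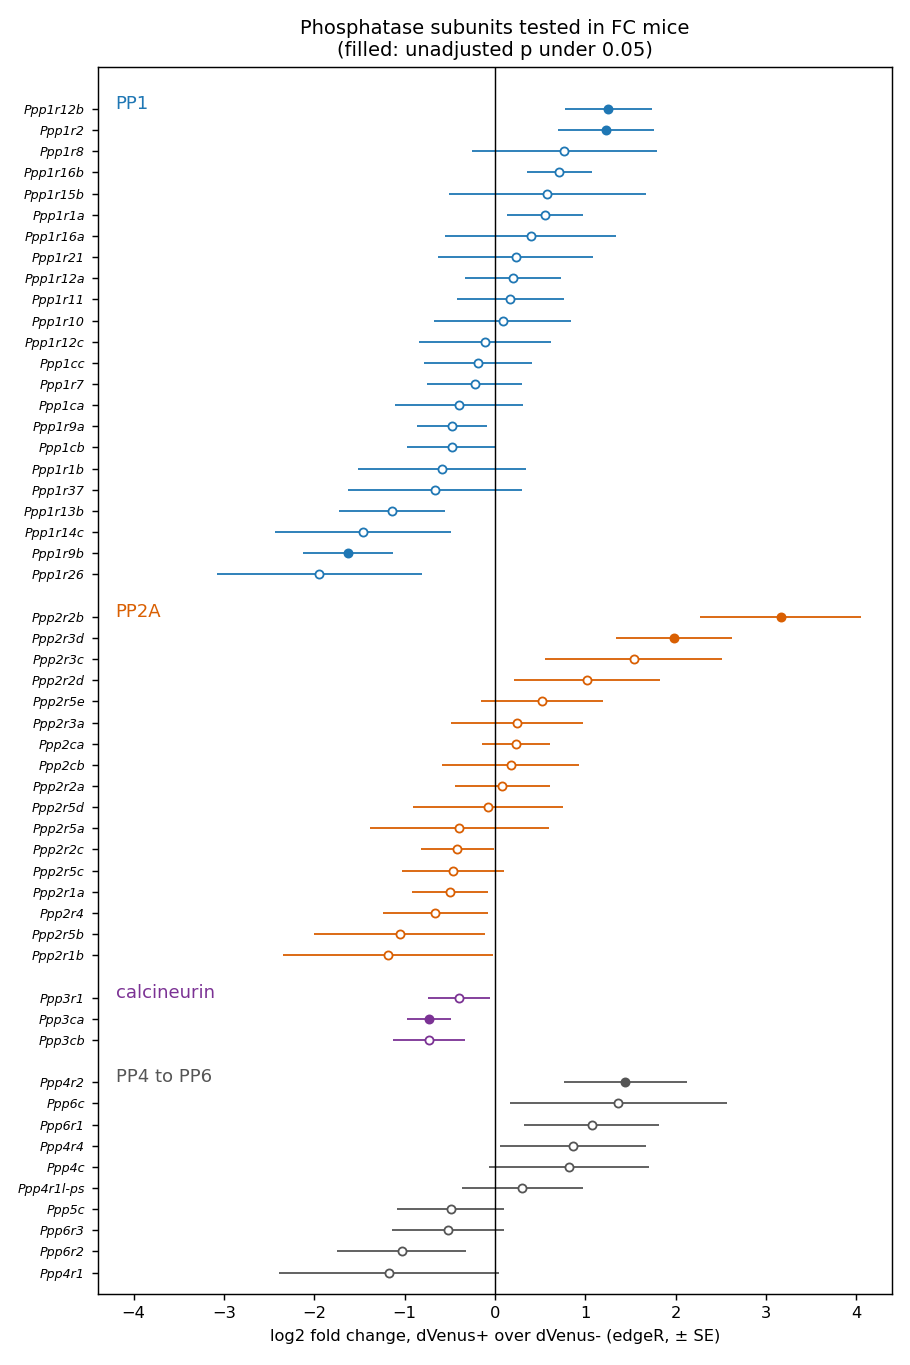
Log2 fold change of dVenus+ over dVenus- cells, with its SE, for the 53 members tested in FC mice (n = 12), by family; filled points have an unadjusted p under 0.05. Ppp2r2b lies farthest to the right at 3.16, the 3 calcineurin genes all lie left of 0, and the other families, which have more genes, spread to both sides.

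For PP1 in FC mice, 23 of 45 members were tested and 0 called by edgeR, with 3 at an unadjusted p under 0.05 and 3 called by DESeq2 (Ppp1r9b, Ppp1r12b and Ppp1r2). Ppp1r9b, or spinophilin, which anchors PP1 to actin in dendritic spines, ran from 10.7 to 205 normalized CPM (median 23.6) in dVenus+ and from 45.5 to 201 (median 91.9) in dVenus- libraries. It was lower in dVenus+ cells of 10 of 12 mice, and mouse 5, at 205 against 117, gave the largest of the exceptions. Its log2 fold change was -1.63 ± 0.50 (SE; 95% interval -2.65 to -0.61, edgeR adjusted p = 0.0577), and without mouse 5 it was -1.85 with an adjusted p of 0.0285. The related neurabin gene Ppp1r9a had -0.48 ± 0.39 (adjusted p = 0.578).

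Among the myosin-targeting subunits of PP1, Ppp1r12b, a regulator of myosin phosphatase, had medians of 81.2 and 34.8 normalized CPM in dVenus+ and dVenus- libraries and was higher in 9 of 12 mice, with a log2 fold change of 1.26 ± 0.48 (edgeR adjusted p = 0.141). Ppp1r16b, a membrane-bound relative, was higher in 11 of 12 mice, at medians of 157 and 96.7, with 0.71 ± 0.36 (adjusted p = 0.297). In this family of 5 genes 4 lay above 0. Ppp1r2, the gene of inhibitor 2, ran from 37.3 to 259 (median 125) in dVenus+ and from 1.74 to 303 (median 50.8) in dVenus- libraries, with 1.23 ± 0.53 (adjusted p = 0.211). Its processed copies Ppp1r2-ps3, Ppp1r2-ps7 and Ppp1r2-ps9 held at most 26 counts over all libraries, and reads shared with a copy would not have been counted as unique. Inhibitor 1 (Ppp1r1a) and DARPP-32 (Ppp1r1b), both targets of PKA, had 0.55 ± 0.42 and -0.59 ± 0.93, and Ppp1r14c, an inhibitor activated by PKC, had -1.46 ± 0.97. The p53-binding ASPP member Ppp1r13b had -1.14 ± 0.59 (adjusted p = 0.315), and Ppp1r26, a PP1 interactor at medians of 0.942 and 2.11, had -1.95 ± 1.14. The catalytic genes Ppp1ca, Ppp1cb and Ppp1cc had -0.40 ± 0.71, -0.48 ± 0.50 and -0.19 ± 0.60.

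In FC mice the tested calcineurin genes had log2 fold changes below 0 in 3 of 3 cases, with a median of -0.73 beside -0.11 over all genes. Being on one side is not particular to calcineurin among sets of this size. The 3 PP1 catalytic genes also all lay below 0, and the 3 B″ genes of PP2A all above. Ppp3ca (GRCm38 chr3:136670124-136937727, plus strand) ran from 279 to 1522 normalized CPM (median 950) in dVenus+ and from 631 to 2455 (median 1637) in dVenus- libraries. It was lower in dVenus+ cells of 10 of 12 mice, and the ranges overlapped. Its change was -0.73 ± 0.24 (SE; 95% interval -1.22 to -0.23), with an edgeR adjusted p of 0.0816, so it was not called. Within the 3 ID series it was -1.26, -1.14 and -0.34. Ppp3cb had the same size of change, -0.73 ± 0.40, with medians of 76.8 and 116 and 9 of 12 mice lower (adjusted p = 0.354). Ppp3r1 had medians of 693 and 600, was lower in 6 of 12 mice and had a change of -0.40 ± 0.34 (adjusted p = 0.595). Ppp3cc stayed below the filter, at no more than 5.63 (dVenus+) and 45.2 (dVenus-) normalized CPM.

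For PP4 to PP6 in FC mice all 10 members were tested and 0 called by edgeR or DESeq2, with 1 at an unadjusted p under 0.05. Ppp4r2, a core regulatory subunit of PP4, was higher in dVenus+ cells of 11 of 12 mice, at a median of 31.8 against 17.4 normalized CPM and with a highest library of 316 against 27.2. Its log2 fold change was 1.44 ± 0.68 (edgeR adjusted p = 0.263). Ppp4c and Ppp6c, the catalytic subunits of PP4 and PP6, had 0.82 ± 0.88 and 1.37 ± 1.20, and Ppp5c, whose phosphatase is autoinhibited by its own repeat domain, had -0.49 ± 0.59. Of the PP6 regulatory subunits Ppp6r1 had 1.07 ± 0.75 and Ppp6r2 had -1.03 ± 0.71.

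**Figure D3:**
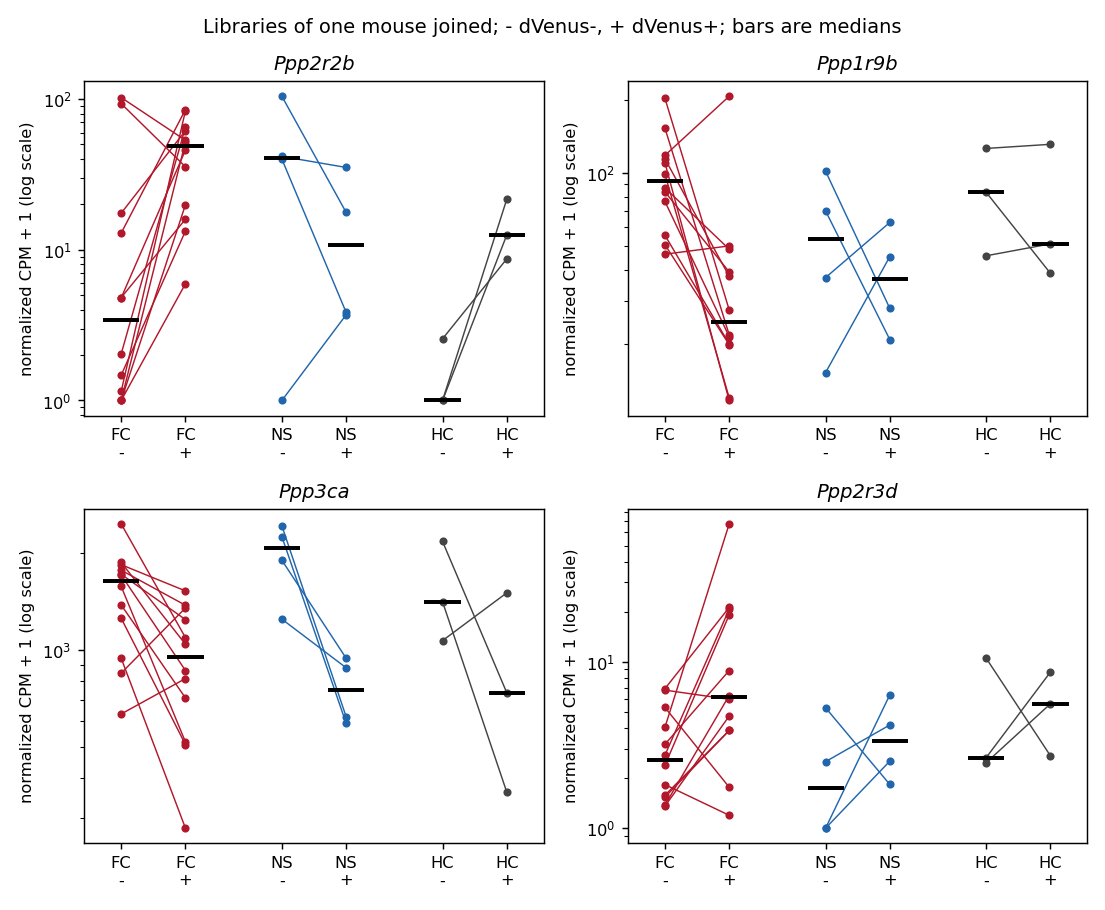
Normalized CPM plus 1 (log scale) of Ppp2r2b, Ppp1r9b, Ppp3ca and Ppp2r3d in the dVenus- and dVenus+ library of each FC, NS and HC mouse, joined by a line, with the group median as a bar. Ppp2r2b is higher in dVenus+ cells on 10 of 12 FC lines and lower on 3 of 4 NS lines, and Ppp3ca is lower on 10 of 12 FC and 4 of 4 NS lines.

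In NS mice, which met the context without a shock, edgeR called 0 of 45 members beside 4 of 8187 genes (0.0489%), with 4 members at an unadjusted p under 0.05 (8.89%, beside 8.67% of all genes) and 3 called by DESeq2 (6.67%, beside 8.20% of all genes), namely Ppp2cb, Ppp4c and Ppp6r2. Ppp2cb, the second PP2A catalytic gene, stood at 3.42, 0.244, 0 and 0 normalized CPM in the dVenus+ libraries of mice 18 to 21 and at 154, 6.05, 75.7 and 8.73 in the dVenus- libraries. These groups did not overlap, as for 6.05% of all genes tested in NS, and the change was -6.14 ± 2.18 (SE, edgeR adjusted p = 0.493). With 29, 1, 0 and 0 counts in dVenus+ libraries, Ppp2cb passed the filter only through dVenus- cells, so these values are a description. Ppp2ca, which encodes a nearly identical protein, had values of 88.0, 31.8, 119 and 111 against 66.7, 129, 364 and 99.6, which overlapped (-0.75 ± 0.95). The PP2A scaffold Ppp2r1a was lower in 4 of 4 dVenus+ libraries without overlap, at 339, 167, 213 and 321 against 1264, 482, 495 and 397 (-1.24 ± 0.65, adjusted p = 0.589), and Ppp2r2c likewise with -1.94 ± 1.00.

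Ppp3ca in NS mice stood at 591, 619, 941 and 879 normalized CPM with dVenus and at 2242, 2423, 1895 and 1243 without. Every dVenus+ library was below every dVenus- library, and the change of -1.35 ± 0.49 (SE) had an edgeR adjusted p of 0.510. Ppp3cb had -0.91 ± 0.86 and was lower in 4 of 4 mice, and Ppp3r1 had -0.27 ± 0.63 and was lower in 2 of 4. Ppp1cb, a PP1 catalytic gene, had 184, 26.4, 91.3 and 262 against 518, 302, 608 and 229, with 1 of 4 mice higher and -1.88 ± 0.84 (adjusted p = 0.553). Ppp1ca was lower in 4 of 4 mice with -1.61 ± 1.09. Ppp4r4, a PP4 regulatory subunit, had the largest positive fold change of the 45, at 28.2, 9.53, 43.3 and 44.5 against 0.827, 3.93, 0 and 3.89 without overlap (4.02 ± 1.73, adjusted p = 0.547). With 6, 26, 0 and 57 counts in dVenus- libraries, Ppp4r4 passed the filter only through dVenus+ cells, so this too is a description. Ppp2r2b stood at 16.7, 34.2, 2.85 and 2.70 in dVenus+ against 103, 40.7, 39.0 and 0 in dVenus- libraries, lower in 3 of 4 mice (-1.58 ± 1.65). The other catalytic genes had 3.53 ± 2.14 (Ppp4c, from 2.14 without mouse 18 to 6.18 without mouse 21), -2.15 ± 1.30 (Ppp5c) and 0.42 ± 1.22 (Ppp1cc), and the B56 genes Ppp2r5e and Ppp2r5c had 3.37 ± 1.87 and -1.99 ± 1.12.

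In HC mice edgeR called 0 of 45 members beside 0 of 7588 genes (0%), with 3 members at an unadjusted p under 0.05 (6.67%, beside 7.01% of all genes) and 5 called by DESeq2 (11.1%, beside 8.24% of all genes), namely Ppp1r37, Ppp1r3c, Ppp2r2b, Ppp2r5d and Ppp4r4. Ppp2r5d, the B56 delta subunit of PP2A, had 12.8, 0 and 0 normalized CPM in the dVenus+ libraries of mice 15 to 17 and 65.2, 135 and 148 in the dVenus- libraries (-5.68 ± 2.12, edgeR adjusted p = 0.677). Ppp3r1 had 64.1, 165 and 443 against 865, 1192 and 541 (-2.35 ± 0.95, adjusted p = 0.677). Ppp2r2b had 11.5, 20.6 and 7.70 against 0, 0 and 1.57, higher in 3 of 3 mice (4.55 ± 1.94, adjusted p = 0.690). None of these 3 genes overlapped between cell types, which held for 15.2% of all genes tested in HC. Ppp2r5d had 60, 0 and 0 counts in dVenus+ and Ppp2r2b 0, 0 and 18 in dVenus- libraries. Both thus passed the filter only through the cell type where they are high. For these genes the lack of overlap and the sizes of change are descriptions and lend no support to a difference. These sizes moved with single mice. Leaving out 1 mouse took Ppp2r5d from -13.07 (without mouse 15, which leaves both dVenus+ libraries at 0) to -4.30 and Ppp2r2b from 3.66 to 9.62 (without mouse 17, which leaves both dVenus- libraries at 0), and such fits against 0 are no measure of size. Ppp3r1 ran from -3.40 (without mouse 17) to -1.53 (without mouse 15).

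No other member passed an unadjusted p of 0.05 in HC mice. Ppp3ca had 361, 735 and 1501 against 1408, 2167 and 1067, lower in 2 of 3 mice (-1.04 ± 0.69), and Ppp3cb had 1.03 ± 1.39. Ppp2r2a, higher in 4 of 4 NS dVenus+ libraries (1.86 ± 1.04), was lower in 3 of 3 here, at 26.9, 18.6 and 56.6 against 119, 234 and 126 (-2.26 ± 1.25). Ppp1r3c, a glycogen-targeting subunit, had 20.5, 0 and 34.5 against 0, 6.17 and 0 (4.18 ± 2.81), and in NS mice, where it was not tested, 0, 0.244, 25.1 and 46.4 against 0 in 4 of 4 dVenus- libraries. Ppp4r4 was higher in 3 of 3 mice (4.01 ± 2.33). With 1 mouse left out Ppp1r3c ran from 2.10 to 11.09 and Ppp4r4 from 2.18 to 8.26, both highest without mouse 16. The PP1 inhibitors Ppp1r11, Ppp1r1a and Ppp1r2 had -1.78 ± 1.21, -2.19 ± 1.51 and -2.04 ± 1.45, and the nuclear regulator Ppp1r10 had -3.56 ± 2.36. Of the catalytic genes, Ppp1ca, Ppp1cb and Ppp1cc had -2.18 ± 1.61, -0.85 ± 1.22 and 1.76 ± 1.74, Ppp2ca and Ppp2cb had -1.47 ± 1.22 and -1.06 ± 2.90, and Ppp3cc, Ppp5c and Ppp6c had 1.78 ± 2.00, -1.83 ± 3.64 and 1.32 ± 1.72. In simulated counts of this design, with the same spread for every gene, edgeR recovered 0% of 16-fold changes in NS and in HC. In FC it recovered 62% of 16-fold and 6% of 4-fold changes. With 4 and 3 mice a 16-fold change was thus not recovered for a gene of that spread. Members that vary less were not simulated.

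**Figure D4:**
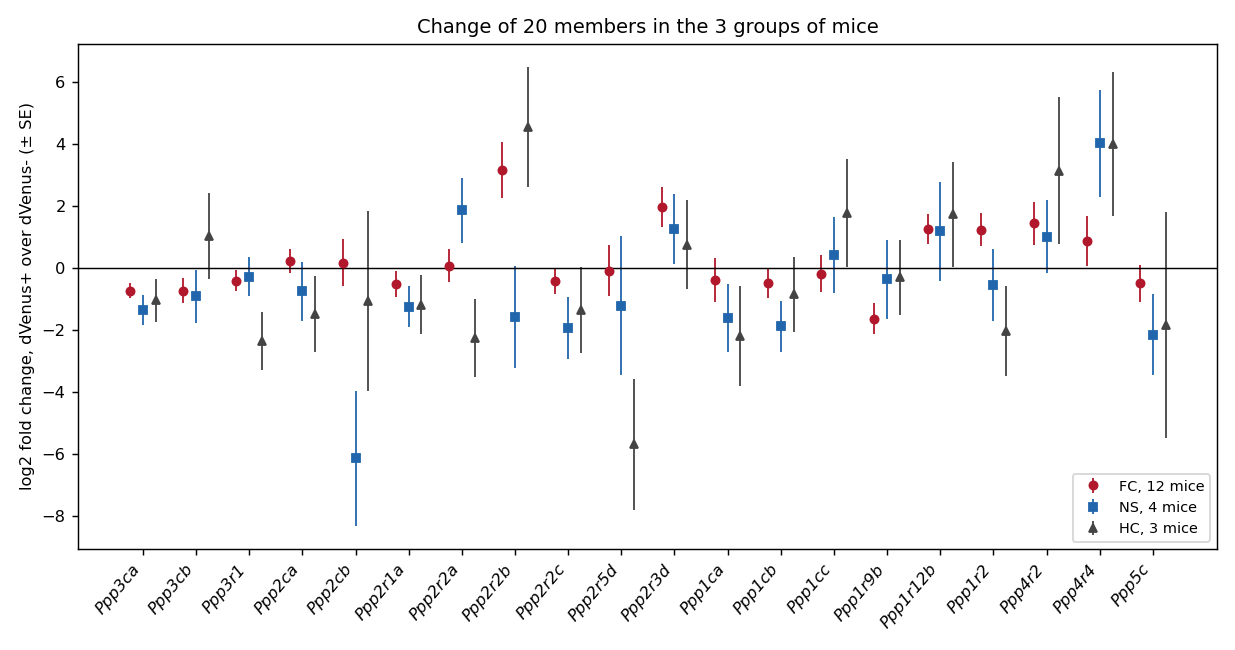
Log2 fold change of dVenus+ over dVenus- cells, with its SE, of 20 members in FC (12 mice), NS (4) and HC mice (3). Ppp3ca lies below 0 in all 3 groups, Ppp2r2b above 0 in FC and HC and below in NS, and the error bars of NS and HC are wider than those of FC for each member shown.

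Whether the dVenus+ change differed between training histories was tested as an interaction over all 38 libraries. FC libraries were of other ID series than NS and HC libraries, so for FC against NS or HC training history and series cannot be told apart. edgeR called 0 of 66 members for FC against NS, for FC against HC and for NS against HC, beside 0 of 14075 genes (0%) each, with 5, 5 and 3 members at an unadjusted p under 0.05 (7.58%, 7.58% and 4.55%, beside 8.18%, 9.26% and 6.88% of all genes) and 5, 7 and 6 called by DESeq2 (7.58%, 10.6% and 9.09%, beside 8.57%, 11.1% and 9.47% of all genes). For Ppp2r2b the change in FC exceeded that in NS by 4.54 ± 1.76 on the log2 scale (SE, edgeR adjusted p = 0.584), and that in NS lay below HC by -6.10 ± 2.45 (adjusted p = 0.619). For Ppp2cb the change in FC exceeded that in NS by 6.34 ± 2.12 (adjusted p = 0.535). For Ppp3r1 the change in FC exceeded that in HC by 1.76 ± 0.85 (adjusted p = 0.538). The median interaction over all genes was itself off 0, at -0.43 for FC against NS and -0.58 for FC against HC, and moved to -0.26 and -0.30 with DESeq2's size factors. The intervals of the members' differences were wide, for Ppp2r2b from 0.97 to 8.12 between FC and NS, and a p-value that misses the threshold does not show that the responses were alike.

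Directions over the 3 groups were compared for the 40 members tested in each. Of these 11 were lower in dVenus+ cells in all 3 fits (27.5%, beside 20.6% of 6621 genes) and 7 higher (17.5%, beside 19.7%). The 11 lower members were the catalytic genes Ppp1ca, Ppp1cb, Ppp3ca and Ppp5c, calcineurin B (Ppp3r1), the scaffold Ppp2r1a, the B subunits Ppp2r2c, Ppp2r5c and Ppp2r5d, spinophilin (Ppp1r9b) and Ppp1r13b. The sign of a fit need not hold mouse by mouse. Ppp1r9b was lower in 10 of 12 FC mice but in 2 of 4 NS and 1 of 3 HC mice. Ppp3r1 was lower in 6 of 12 FC, 2 of 4 NS and 3 of 3 HC mice. The 7 higher members were Ppp1r8, Ppp1r12b, Ppp1r16b, Ppp2r3d, Ppp2r5e, Ppp4r2 and Ppp4r4.

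A fit with 1 common dVenus effect over all 19 mice, added after the values above had been seen, gave Ppp3ca the smallest adjusted p of the members. Ppp3ca was lower in dVenus+ cells of 16 of 19 mice, with a log2 fold change of -0.90 ± 0.19 (SE; 95% interval -1.29 to -0.52, edgeR adjusted p = 0.00472). Its fold of 1.87 stayed under the 2-fold limit, so edgeR called 0 of 66 members beside 501 of 14075 genes (3.56%), with 14 members (21.2%) at an unadjusted p under 0.05 beside 19.5% of genes, and 3.63% of genes passed the adjusted p at any fold. The value held with DESeq2's size factors (adjusted p = 0.00478) and with the older quasi-likelihood method of edgeR (adjusted p = 0.0160). In this fit Ppp2r2b had 2.43 ± 0.80 (adjusted p = 0.0750), Ppp1r12b 1.35 ± 0.45 (adjusted p = 0.0807) and Ppp2r3d 1.67 ± 0.59 (adjusted p = 0.0977). Ppp4r2 was higher in 16 of 19 mice and Ppp2r1a lower in 15 of 19, without passing the adjusted threshold.

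Sums over a family, which are carried by its most abundant genes, are given per mouse as a description. The summed calcineurin level had medians of 1633 (dVenus+) and 2223 (dVenus-) normalized CPM in FC mice, and dVenus+ cells had more in 2 of 12 FC, 0 of 4 NS and 1 of 3 HC mice. PP2A was higher in 4 of 12 FC, 0 of 4 NS and 0 of 3 HC mice, and PP1 in 7 of 12, 1 of 4 and 1 of 3. PP4 to PP6 was the family with most FC mice above 0, 10 of 12, at medians of 439 against 372, but it was higher in 3 of 4 NS and only 1 of 3 HC mice, where the median log2 ratio was -0.90.

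**Figure D5:**
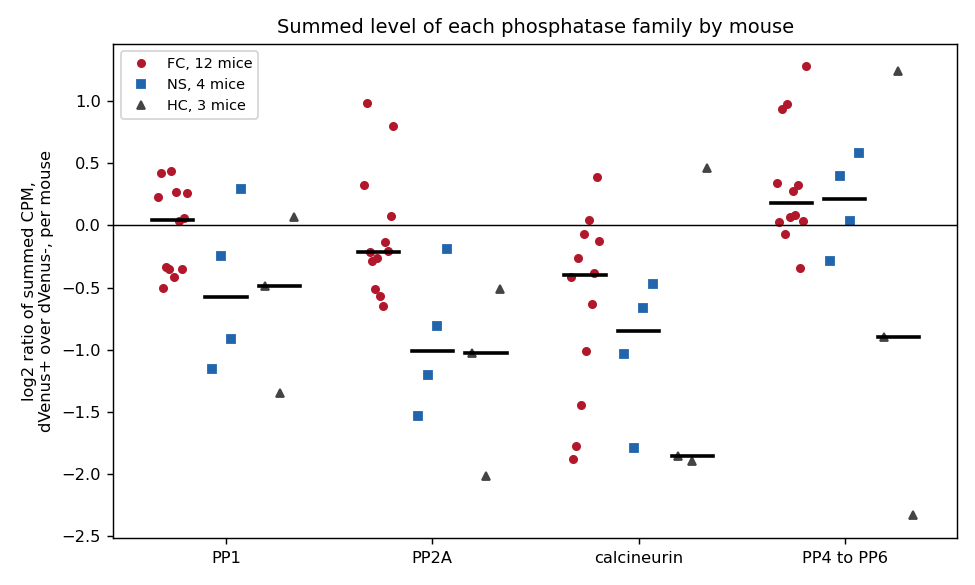
Log2 ratio of the summed normalized CPM of each phosphatase family in the dVenus+ over the dVenus- library, 1 point per mouse, with the group median as a bar. Calcineurin lies below 0 in 10 of 12 FC and 4 of 4 NS mice, and PP4 to PP6 above 0 in 10 of 12 FC mice.

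Proteins that act on or through these phosphatases, a list of 40 genes of which 39 were in the files, were read with the same fits. In FC mice 28 were tested and 0 called by edgeR, with 1 higher (3.57%) and 6 lower (21.4%) in dVenus+ cells at an unadjusted p under 0.05, beside 6.49% and 11.3% of all genes. In NS mice 0 of 24 were higher and 3 lower (12.5%), beside 4.21% and 4.46% of all genes. In HC mice 2 of 23 were higher (8.7%) and 1 lower (4.35%), beside 3.80% and 3.22%. The calmodulin genes Calm2 and Calm3, whose protein activates calcineurin, had log2 fold changes of -0.76 ± 0.24 (edgeR adjusted p = 0.0636) and -0.92 ± 0.29 (adjusted p = 0.0690), with dVenus+ cells higher in 3 of 12 and 1 of 12 mice. Crtc1, a CREB coactivator that calcineurin dephosphorylates, had medians of 141 and 236 normalized CPM and -0.97 ± 0.36 (adjusted p = 0.134). Phactr1 and Phactr3, which bind PP1 and actin, had -1.70 ± 0.55 and -1.52 ± 0.70, and Anp32a, an inhibitor of PP2A, had -1.17 ± 0.48. Tiprl, which binds PP2A-type catalytic subunits, was the one higher gene, with 1.45 ± 0.71. Over all 19 mice edgeR called 1 of the 35 listed genes tested, beside 3.56% of all genes. This was Calm2, which was lower (-1.03 ± 0.19, adjusted p = 0.0010). Calm3 passed the adjusted p below the 2-fold limit (-0.96 ± 0.23, adjusted p = 0.0147).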

How the data were processed

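RNA of 10 dVenus+ and 10 dVenus- cells per mouse had been amplified by Smart-seq2 and sequenced as single reads. The authors aligned them to mm10 with TopHat2 2.0.13, kept unique alignments and deposited the HTSeq 0.6.0 counts per gene of each library, without normalization. The 5 entries that name no gene were left out. Reads outside genes were 16.4 to 59.7% of those counted on genes, outside genes or as ambiguous between genes. The kit marks no strand, so reads of overlapping genes on opposite strands cannot be told apart. Reads carried no molecular identifiers, so their number does not count molecules. One deposited table of the whole series was not used.

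Groups and mice came from titles and characteristics. The descriptions of 10 NS and HC libraries name another sample ID and were not used. Each group was fitted in edgeR 4.0.16 (R 4.3.3) with TMM factors, the newer quasi-likelihood method, cell type and the mouse as block, on genes with at least 10 counts in 12 (FC), 4 (NS) or 3 (HC) libraries, and interactions on all 38 libraries. A gene was called at an adjusted p under 0.05 and an absolute log2 fold change over 1. Normalized CPM use the group's TMM factors. DESeq2 1.42.0 was an alternative, and the scripts were tested on simulated data. Replicates are separate mice. The 2 libraries of a mouse come from 1 animal, which makes the pairs; their deviations from the group means correlated with a median of 0.036 in FC (2 of 12 over 0.1), -0.012 in NS and 0.020 in HC. Genes named with values are the catalytic and calcineurin B subunits, members called, and the 12 members of smallest p in each group; others are named for contrast or to complete a role and were chosen after their values were seen. The members, their roles and all lists were chosen with earlier results of these data known. Gene lengths, positions and coding sequences are from GENCODE M21 (GRCm38, the build of mm10), and levels per kb use the union of a gene's exons.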

Additional observations from a re-analysis of the deposited data

Results flagged for a closer look

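In 40 groups of 4 NS libraries, 6 named members had 1 library far from the other 3. The rule used (Dixon's ratio) flags about 1 in 20 groups of normally distributed values. Normalized CPM are skewed and often 0, so that rate does not apply and no excess over chance can be read from the 6. In dVenus+ cells Ppp2cb stood at 3.42 normalized CPM in 1 library with the nearest at 0.244, and Ppp5c at 155 with the nearest at 21.4. In dVenus- cells Ppp2r1a stood at 1264 with the nearest at 495, Ppp2r5e at 8.16 with the nearest at 1.16, Ppp3cc at 6.82 with the nearest at 0, and Ppp4c at 25.2 with the nearest at 0.689.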

How the results depend on the processing

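The count of FC members called was 1 with TMM or DESeq2's size factors and with mice 3, 4 and 7 left out together, a setting chosen after seeing the data, as was the older quasi-likelihood method of edgeR. It was 0 with no count filter, with the stricter filter (which drops Ppp2r2b), with the older method and within each of the 3 sample ID series alone, and 6 with DESeq2, and it ran from 0 to 2 with 1 mouse left out. Without the replicate block it was 2, Ppp1r26 and Ppp2r3d in place of Ppp2r2b. NS and HC members called stayed at 0 in all edgeR settings and with each mouse left out, and were 3 and 5 with DESeq2. The interactions stayed at 0 with each NS or HC mouse left out and were 5, 7 and 6 with DESeq2; leaving out FC mice was not run for them. Over all genes FC calls were 422, against 1651 with DESeq2, 137 with the older method and 487 without the block, and NS calls were 4, 671, 0 and 13. In NS they were also 11 with size factors (5 higher and 6 lower, against 3 and 1), 1 with no count filter and 0 with the stricter one. FC calls were 174 without mice 3, 4 and 7 and 0, 12 and 15 within single series. HC calls were 0, against 625 with DESeq2, 2 with the older method and 0 without the block. The cause of these differences was not tested.

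Some catalytic and calcineurin B genes changed sign. Within the FC mice of a single ID series Ppp1ca reached 2.40, Ppp1cb 0.66 and 0.23, Ppp1cc 0.34, Ppp2ca -0.11, Ppp2cb -1.49, Ppp4c -1.67 and Ppp6c -2.93. Without the block Ppp1cc was 0.0301 in FC and -0.0222 in NS, and Ppp2cb 0.99 in HC. DESeq2 and the older method gave Ppp2cb -0.0368 and -0.0876 in FC and Ppp5c 2.76 and 2.97 in HC, and without mice 3, 4 and 7 Ppp2cb was -0.18 in FC. With 1 mouse left out Ppp1cb ran from -2.40 to 0.53 in HC, Ppp1cc from -0.46 to 0.0651 in FC and from -0.21 to 1.16 in NS, Ppp2cb from -0.10 to 0.42 in FC and from -3.43 to 2.00 in HC, Ppp3cb from -0.31 to 2.24 and Ppp6c from -0.32 to 1.34 in HC, and Ppp3r1 from -0.63 to 0.24 in NS. Ppp3ca in FC ran from -0.85 to -0.63 and Ppp2r2b from 2.67 to 3.70.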
